A study of Homo sapiens with 8 samples.

Results

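*GCLC*, *GCLM*, *GSS*, *GSR*, *SLC7A11* and *GGCT* supply, assemble or recycle glutathione, and their transcripts were followed in all 8 RNA-seq libraries made from ABC1 and HCC4006 cells. The 6 genes were taken as a list of names, by gene symbol, out of 57815 gene identifiers with a value in every library, and all 6 were found. This list was chosen with earlier results of these data known. ABC1 and HCC4006 are established human lung adenocarcinoma lines that carry no mutation in *KEAP1* or *NRF2*, that is, lines in which the NRF2 pathway is under its normal control. Cells of each line received 100 μM DEM for 16 h or the vehicle DMSO. DEM, given as diethyl maleate in the study's methods and spelled dimethylmaleate in the series title, is an electrophile that induces NRF2. Each of the 4 groups (ABC1 with vehicle, ABC1 with DEM, HCC4006 with vehicle, HCC4006 with DEM) held 2 libraries, described as biological duplicates. No genotype differed between the groups of a line. Each line is a single line in culture, so a difference between lines concerns these 2 lines. Levels are given as FPKM, a count of sequenced fragments scaled to transcript length and to the size of the library.

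Glutathione is a tripeptide of glutamate, cysteine and glycine and the main soluble thiol of the cell. Cysteine is usually the scarce building block, and much of it enters as cystine through the exchanger of which SLC7A11 is the transporting subunit and SLC3A2 the partner that carries it to the membrane. Glutamate cysteine ligase, made of the catalytic subunit GCLC and the modifier subunit GCLM, joins glutamate to cysteine in the step that limits the rate, and glutathione synthetase (GSS) then adds glycine. Glutathione reductase (GSR) returns oxidised glutathione to the reduced form with NADPH, and gamma-glutamylcyclotransferase (GGCT) breaks gamma-glutamyl amino acids in the cycle that recovers the parts. Several of these genes are textbook targets of NRF2, which binds the antioxidant response element as a heterodimer with small MAF proteins. Electrophiles such as DEM also react with glutathione itself.

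The libraries of a group resembled each other, with a correlation of log2(FPKM + 1) across genes between 0.977 and 0.988. The largest sum of FPKM in a library was 1.18 times the smallest. The reads of single libraries were not counted here, but the authors' base mean, their mean of scaled counts over the 4 libraries of a line, lay between 393 (*GSS* in ABC1) and 5412 (*GCLC* in HCC4006) for the 6 genes. Counting alone would then give a coefficient of variation of 5.04% for *GSS* in ABC1 and of less for each of the others in either line. All 6 epithelial markers examined, *EPCAM*, *CDH1*, *KRT7*, *KRT8*, *KRT18* and *KRT19*, had at least 1 FPKM in every library. The lung adenocarcinoma markers *NKX2-1* and *NAPSA* were between 12.9 and 47.1 FPKM in HCC4006 and at most 0.763 FPKM in ABC1. *SFTPB*, a surfactant gene, was listed at 0 in every ABC1 library and reached at most 0.277 FPKM in HCC4006. The lineage markers were thus near absent in ABC1. Markers of other cell types were low. The 4 leukocyte markers summed to at most 0.264 FPKM in ABC1 and 2.5 FPKM in HCC4006. Most of the sum in HCC4006 was *CD79A*, at 1.31 to 2.45 FPKM. The 2 endothelial markers found summed to at most 0.236 FPKM in any library. The 4 fibroblast markers, most of it *COL1A1*, summed to at most 7.84 FPKM. The 6 epithelial markers summed to 4974 and 5825 FPKM with vehicle and 3666 and 4085 FPKM with DEM in ABC1, and to 4393 and 4578 FPKM with vehicle and 3443 and 3487 FPKM with DEM in HCC4006. The keratins *KRT7*, *KRT8*, *KRT18* and *KRT19* had lower values in both DEM libraries than in both vehicle libraries of each line, as did *CDH1* in HCC4006, whereas *EPCAM* in both lines and *CDH1* in ABC1 overlapped. The part of this shift in the results was not tested. In such bulk libraries, more transcript per cell and more cells with the transcript cannot be told apart.

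*SLC7A11*, which brings cystine into the cell, was low with vehicle and high with DEM in both lines. In ABC1 its level was 7.97 and 7.82 FPKM with vehicle and 51.2 and 51.1 FPKM with DEM. HCC4006 cells had 6.02 and 6.33 FPKM with vehicle and 48.1 and 47.1 FPKM with DEM. The groups stood far apart in each line and the 2 libraries of each group lay close together. The mean FPKM rose 6.48-fold in ABC1 and 7.72-fold in HCC4006. On the log2(FPKM + 1) scale, which makes the change of a low gene smaller than its ratio, the log2 fold change was 2.55 in ABC1 (adjusted p = 0.00428, standard error 0.12, limma after Benjamini-Hochberg adjustment). In HCC4006 it was 2.76 (standard error 0.09, adjusted p = 0.000127 by limma), which ranked 9 from the top among all 13542 genes tested there. *SLC7A11* (ENSG00000151012.9) lies at chr4:139085251-139163503 on the minus strand of GRCh37. An antisense gene, *SLC7A11-AS1*, overlaps it and had at most 0.431 FPKM in any library.

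*SLC3A2*, the heavy chain that pairs with *SLC7A11* and with several other transporters, rose less. It went from 119 and 115 FPKM to 214 and 225 FPKM in ABC1 and from 120.3 and 123 FPKM to 236 and 246 FPKM in HCC4006. Its log2 fold change was 0.90 in ABC1 (adjusted p = 0.0431 by limma) and 0.98 in HCC4006 (adjusted p = 0.00118 by limma). The ratio of *SLC7A11* to *SLC3A2* FPKM within a library therefore climbed with DEM. It was 0.0670 and 0.0682 with vehicle and 0.239 and 0.227 with DEM in ABC1. The HCC4006 libraries gave 0.050 and 0.0516 with vehicle and 0.204 and 0.192 with DEM. *SLC3A2* transcript thus remained at several times the level of *SLC7A11* in every library.

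*GCLC*, the catalytic subunit of glutamate cysteine ligase, was the member with the highest level after DEM in each line. In ABC1 it went from 20.8 and 31.2 FPKM with vehicle to 231 and 256 FPKM with DEM. In HCC4006 it went from 84.0 and 83.1 FPKM to 387 and 386 FPKM. Even the lower DEM library of ABC1 stood above the higher vehicle library of HCC4006. The mean FPKM rose 9.37-fold in ABC1 and 4.63-fold in HCC4006. DEM gave *GCLC* a log2 fold change of 3.21 in ABC1 (adjusted p = 0.00798 by limma, standard error 0.21), ranked 7 from the top among 12635 genes, and 2.20 in HCC4006 (standard error 0.06, adjusted p = 8.78e-05 by limma). The 2 vehicle libraries of ABC1 differed more than those of any other group of this gene relative to their mean, and without the first (replicate 0) or the second (replicate 1) of them the log2 fold change was 2.92 or 3.49 and remained called. *GCLC* (ENSG00000001084.6) lies at chr6:53362139-53481768 on the minus strand of GRCh37. Its antisense gene *GCLC-AS1* reached at most 0.573 FPKM, and *LINC01564*, which overlaps one end of this span on the other strand, at most 1.36 FPKM. On the same strand ENSG00000231683 overlaps *GCLC*, at no more than 0.221 FPKM.

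*GCLM*, the modifier subunit, rose in both lines as well. Its level was 15.2 and 17.6 FPKM with vehicle and 56.8 and 48.0 FPKM with DEM in ABC1. HCC4006 cells had 8.13 and 7.72 FPKM with vehicle and 37.2 and 39.8 FPKM with DEM. The order of the lines was thus the reverse of that of *GCLC*, with ABC1 above HCC4006 under either treatment. The mean FPKM rose 3.19-fold in ABC1 and 4.86-fold in HCC4006. On the log2 scale *GCLM* changed by 1.61 in ABC1 (adjusted p = 0.0221 by limma, standard error 0.15) and 2.15 in HCC4006 (standard error 0.09, adjusted p = 0.000426 by limma). In ABC1 the call was lost without vehicle replicate 0 (adjusted p = 0.194 by limma) or vehicle replicate 1 (adjusted p = 0.137 by limma). *GCLM* (ENSG00000023909.5) lies at chr1:94350755-94375012 on the minus strand of GRCh37.

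**Figure D1:**
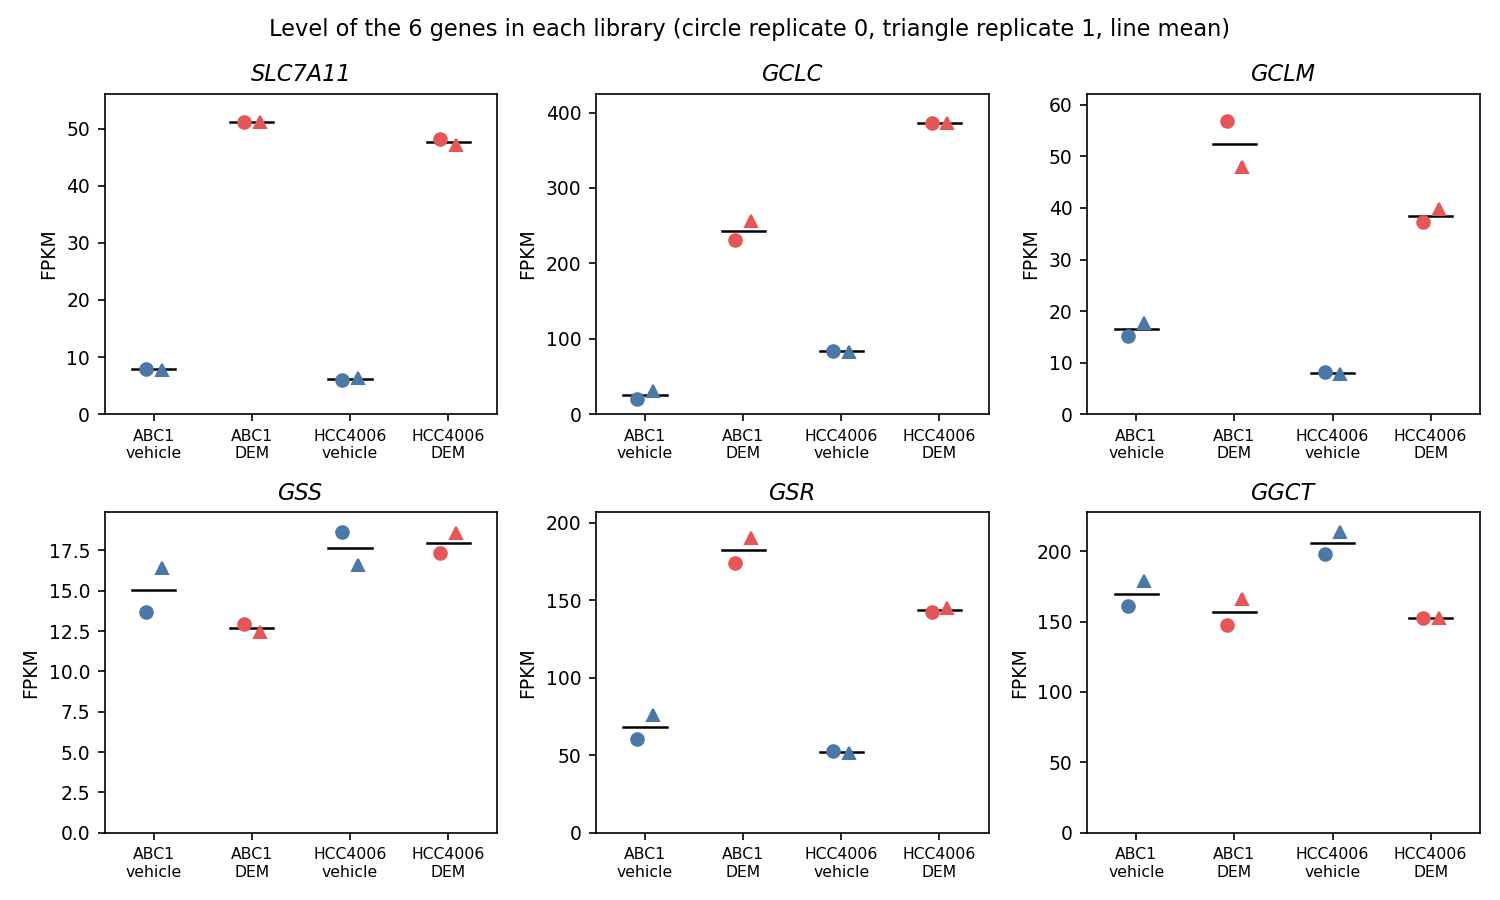
The level in FPKM of each of the 6 genes in each of the 8 libraries, with vehicle in blue, DEM in red, circles for replicate 0, triangles for replicate 1 and a line at the mean of the group. The vertical axes start at 0 and differ between genes; *SLC7A11*, *GCLC*, *GCLM* and *GSR* stand higher with DEM in both lines, *GSS* and *GGCT* do not.

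The promoters of both ligase subunits are shown because sequences were at hand for these genes only. They are reference sequences, the same for both lines. RefSeq sequences of 300 bases, 250 before and 50 after the gene start on GRCh38.p14, were at hand for 2 of the 6 genes, *GCLC* (chr6:53545052-53545351, minus strand) and *GCLM* (chr1:93909381-93909680, minus strand). The start is that of RefSeq and need not be the end of the GENCODE span given above. They are printed 5′ to 3′ along the strand of the gene, with matches to the searched letters in capitals: the TATA box letters TATAAA in *GCLC*, 29 to 24 bases before the start, and in *GCLM* the letters that are the reverse complement of the antioxidant response element core TGACNNNGC, 34 to 26 bases before the start.
GCLC: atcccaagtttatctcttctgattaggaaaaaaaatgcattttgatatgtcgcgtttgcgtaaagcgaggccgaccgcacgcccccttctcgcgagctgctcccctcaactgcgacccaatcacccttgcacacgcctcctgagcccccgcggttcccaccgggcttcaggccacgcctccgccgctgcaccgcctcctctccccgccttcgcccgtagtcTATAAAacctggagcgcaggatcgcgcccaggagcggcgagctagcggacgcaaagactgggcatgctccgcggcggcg
GCLM: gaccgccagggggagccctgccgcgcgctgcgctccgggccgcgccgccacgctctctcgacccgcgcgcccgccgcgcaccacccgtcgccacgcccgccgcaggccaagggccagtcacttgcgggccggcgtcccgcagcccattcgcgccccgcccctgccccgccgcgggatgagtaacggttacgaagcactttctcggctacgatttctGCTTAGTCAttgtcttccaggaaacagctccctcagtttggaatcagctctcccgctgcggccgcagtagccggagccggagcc
Of 35116 promoter windows of this length, 13.3% held TGACNNNGC and 11.5% held TATAAA on either strand, so each match is a description of these letters. Also searched on both strands were the AP-1 letters TGANTCA, present in 7.71% of windows, and TGATGNAA, the core of the C/EBP and ATF composite element, present in 3.62%, and neither was found in these windows. TGACNNNGC was not found in the *GCLC* window, nor TATAAA in the *GCLM* window. The first letters of TGANTCA and TGACNNNGC are shared, so matches to both can overlap. The GC content was 62.7% for *GCLC* and 71.7% for *GCLM*, against a median of 58.7% over all windows.

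The balance of the ligase subunits differed between the lines and moved with DEM in ABC1. The ratio of *GCLC* to *GCLM* FPKM within a library was 1.36 and 1.77 with vehicle and 4.07 and 5.33 with DEM in ABC1. For HCC4006 the ratio was 10.3 and 10.8 with vehicle and 10.4 and 9.72 with DEM, so there the groups overlapped. Group means were 1.57 ± 0.29 (SD, n = 2) and 4.70 ± 0.89 (SD, n = 2) in ABC1 and 10.6 ± 0.30 (SD, n = 2) and 10.1 ± 0.47 (SD, n = 2) in HCC4006. The smallest p that an exact permutation test (two-sided) allows with so few libraries is 0.333, and none was used for the ratios. *GCLC* transcript exceeded *GCLM* transcript in each of the 8 libraries.

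**Figure D2:**
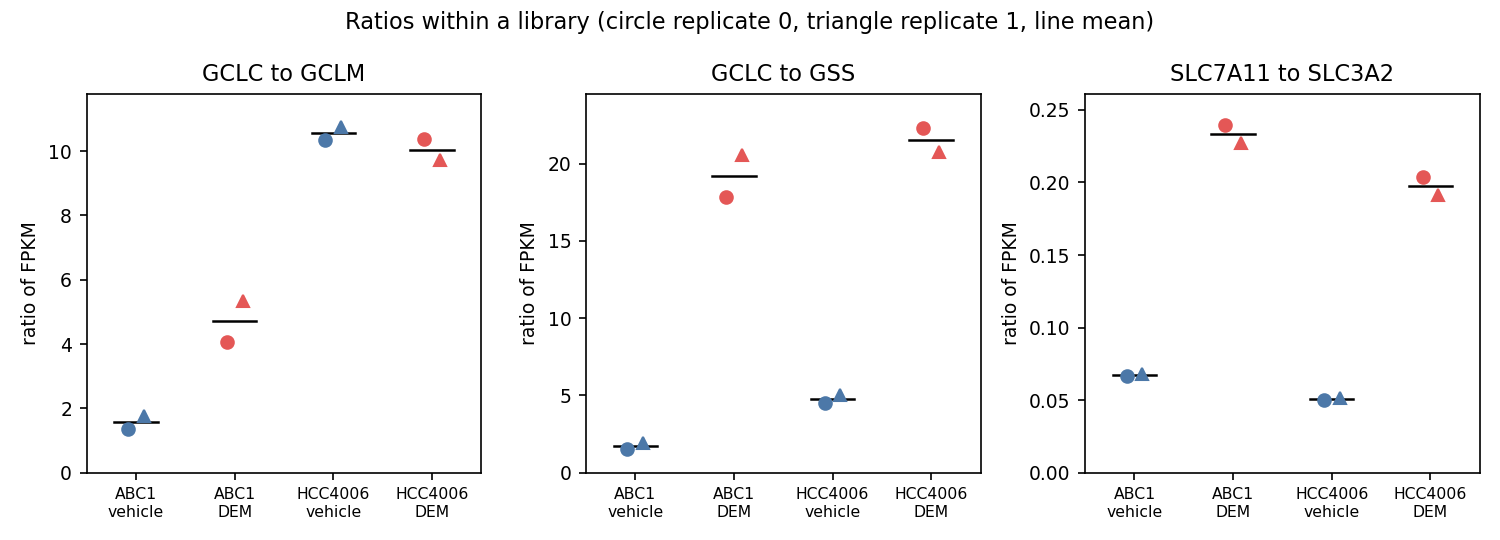
Ratios of FPKM within a library for *GCLC* to *GCLM*, *GCLC* to *GSS* and *SLC7A11* to *SLC3A2*, with vehicle in blue, DEM in red and a line at the mean of the 2 libraries of a group. *GCLC* to *GCLM* climbed from 1.57 to 4.70 in ABC1 and stayed between 9.72 and 10.8 in HCC4006, whereas the other ratios were higher with DEM in both lines.

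*GSS*, which completes the tripeptide, was not called changed in either line. In ABC1 it was 13.7 and 16.4 FPKM with vehicle and 12.9 and 12.4 FPKM with DEM. In HCC4006 it was 18.6 and 16.6 FPKM with vehicle and 17.3 and 18.6 FPKM with DEM. Both DEM libraries of ABC1 lay below both vehicle libraries, while the groups overlapped in HCC4006. The log2 fold change was -0.23 in ABC1 (95% confidence interval -0.58 to 0.13, adjusted p = 0.405 by limma). In HCC4006 it was 0.03 (95% confidence interval -0.22 to 0.27, adjusted p = 0.864 by limma), and it turned to -0.05 without vehicle replicate 1 and to -0.02 without DEM replicate 1. These intervals lie wholly below the intervals of the ligase subunits in the same line. The ratio of *GCLC* to *GSS* accordingly went from 1.52 and 1.90 to 17.9 and 20.6 in ABC1 and from 4.51 and 5.0 to 22.3 and 20.8 in HCC4006. *GSS* (ENSG00000100983.5) lies at chr20:33516235-33543830 on the minus strand of GRCh37, where its start overlaps *MYH7B* on the other strand, a gene at no more than 0.154 FPKM.

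*GSR*, the reductase that regenerates glutathione, rose by similar amounts in the lines. Its level was 60.7 and 75.7 FPKM with vehicle and 174 and 190.2 FPKM with DEM in ABC1. In HCC4006 it was 52.8 and 51.8 FPKM with vehicle and 142 and 145 FPKM with DEM. Groups did not overlap within a line, and the fold of the means was 2.67 in ABC1 and 2.75 in HCC4006. Fitted log2 fold changes were 1.41 in ABC1 (adjusted p = 0.0317 by limma, standard error 0.15) and 1.44 in HCC4006 (standard error 0.07, adjusted p = 0.000523 by limma). In ABC1 the call was lost without any 1 of the 4 libraries, where the adjusted p by limma was 0.284 without vehicle replicate 0, 0.142 without vehicle replicate 1, 0.0519 without DEM replicate 0 and 0.0647 without DEM replicate 1. The log2 fold change lay between 1.25 and 1.57 in these fits. Without the mean-variance trend it was also lost (adjusted p = 0.0582 by limma). *GSR* (ENSG00000104687.8) occupies bases 30535583 to 30585363 of chromosome 8 on GRCh37, minus strand.

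*GGCT*, the cyclotransferase, was abundant in all libraries and was called lower with DEM in HCC4006. In ABC1 it was 161 and 179 FPKM with vehicle and 148 and 166 FPKM with DEM, so the groups overlapped. In HCC4006 it was 198 and 214 FPKM with vehicle and 153 and 152 FPKM with DEM, without overlap. The log2 fold change in HCC4006 was -0.43 (standard error 0.07, adjusted p = 0.0122 by limma), or 0.741 times the vehicle mean. That call was lost without vehicle replicate 1 (adjusted p = 0.0829 by limma), DEM replicate 0 (adjusted p = 0.0566 by limma) or DEM replicate 1 (adjusted p = 0.0543 by limma), and without the minimum of 1 FPKM (adjusted p = 0.0929 by limma). In ABC1 the log2 fold change was -0.12 (95% confidence interval -0.45 to 0.22, adjusted p = 0.656 by limma). *GGCT* (ENSG00000006625.13) lies at chr7:30536237-30544457 on the minus strand of GRCh37. In the annotation ENSG00000281039 overlaps it on the same strand, and that gene had no FPKM value here.

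By limma at an adjusted p under 0.05, 4 of the 6 genes (*SLC7A11*, *GCLC*, *GCLM* and *GSR*) were called higher with DEM in ABC1, where 0.768% of the 12635 genes tested were called higher and 0.435% lower. Of the 6, 0 were called lower in ABC1, and 0 had a lower value at an unadjusted p under 0.05. These 4 genes were also called higher in HCC4006, where 8.45% of the 13542 genes tested were called higher and 10.7% lower, and 1 (*GGCT*) was called lower. The median log2 fold change of the 6 genes was 1.51 (ABC1) and 1.79 (HCC4006), against -0.02 and -0.03 over all genes tested. Because the 6 genes were chosen with earlier results of these data known, this contrast with all genes is a description and no test. Without the minimum of 1 FPKM in ABC1, 0 of the 6 genes and 0 of all genes were called (3883 genes had an unadjusted p under 0.05), and the adjusted p by limma was 0.11 for *SLC7A11*, 0.129 for *GCLC*, 0.138 for *GCLM* and 0.16 for *GSR*. In HCC4006 the same 4 genes remained called under all 10 alternatives, with a highest adjusted p of 0.0382 by limma.

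**Figure D3:**
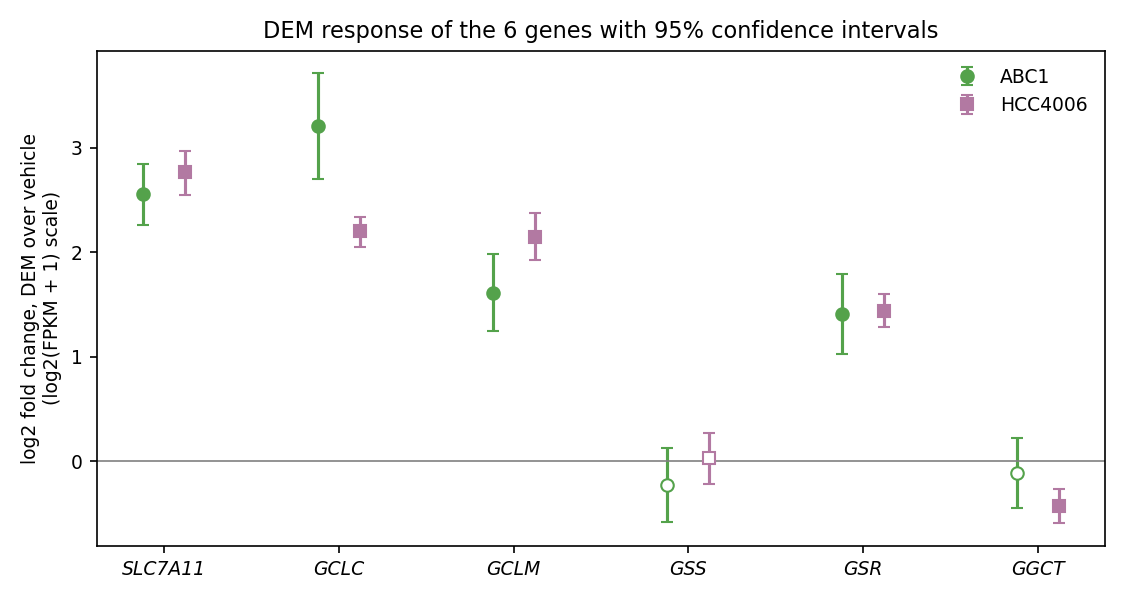
The log2 fold change of DEM over vehicle on the log2(FPKM + 1) scale for each of the 6 genes in ABC1 (circles) and HCC4006 (squares), with 95% confidence intervals from limma; filled symbols were called at an adjusted p under 0.05, open ones were not. *GCLC* lay at 3.21 in ABC1 and 2.20 in HCC4006, *GCLM* at 1.61 and 2.15, while *GSR* lay at 1.41 and 1.44.

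Whether the response differed between the lines was tested in 1 model of all 8 libraries, as the response in HCC4006 minus that in ABC1. For *GCLC* this difference was -1.01 on the log2 scale (95% confidence interval -1.57 to -0.45, adjusted p = 0.121 by limma), that is, a smaller rise in HCC4006 that did not pass the threshold. Without vehicle replicate 1 of ABC1 it was -1.29 (adjusted p = 0.0462 by limma), and over all 13 alternatives the adjusted p lay between 0.0462 and 0.327. For *GCLM* the difference went the other way, at 0.53 (95% confidence interval 0.14 to 0.93, adjusted p = 0.206 by limma). *SLC7A11* differed by 0.21 (95% confidence interval -0.08 to 0.50, adjusted p = 0.494 by limma). For *GSR* the difference was 0.03 (95% confidence interval -0.36 to 0.42, adjusted p = 0.964 by limma), and its sign turned to -0.03 without DEM replicate 0 of ABC1 and to -0.13 without vehicle replicate 1 of ABC1. *GGCT* differed by -0.31 (95% confidence interval -0.65 to 0.02, adjusted p = 0.365 by limma) and *GSS* by 0.25 (adjusted p = 0.553 by limma). Of the 6 genes, 0 were called for this difference by limma, and 2 (*GCLC* and *GCLM*) had an unadjusted p under 0.05. Over all 13682 genes tested, 0.307% were called with a larger log2 fold change in HCC4006 and 0.329% with a smaller one.

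The level with vehicle at 16 h was compared between the lines in the same model, with the vehicle libraries that also enter the comparisons above. *GCLC* was 3.22 times higher in HCC4006 (log2 difference 1.67, standard error 0.17, adjusted p = 7.46e-05 by limma), and *GCLM* was 2.07 times higher in ABC1 (log2 difference, HCC4006 minus ABC1, -0.96, standard error 0.12, adjusted p = 0.000231 by limma). These 2 calls held under all 13 alternatives. With DEM the distance between the lines was smaller for both, 1.59-fold for *GCLC* and 1.36-fold for *GCLM*. *SLC7A11* was 1.28 times higher in ABC1 with vehicle (log2 difference -0.31, adjusted p = 0.0143 by limma), a call lost without vehicle replicate 0 of ABC1 (adjusted p = 0.051 by limma) or vehicle replicate 0 of HCC4006 (adjusted p = 0.0818 by limma). *GSR* was 1.31 times higher in ABC1 (log2 difference -0.37, adjusted p = 0.0246 by limma), and this was lost without vehicle replicate 1 of ABC1 (adjusted p = 0.126 by limma), vehicle replicate 0 of HCC4006 (adjusted p = 0.0864 by limma) or vehicle replicate 1 of HCC4006 (adjusted p = 0.103 by limma), and without the minimum of 1 FPKM (adjusted p = 0.0651 by limma).

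*GGCT* was 1.21 times higher in HCC4006 with vehicle (log2 difference 0.28, adjusted p = 0.0409 by limma), but 7 of 13 alternatives lost this call. They were the fit without the minimum of 1 FPKM (adjusted p = 0.0664 by limma), that without the mean-variance trend (adjusted p = 0.061 by limma), and those without vehicle replicate 0 of ABC1 (adjusted p = 0.182 by limma) or any 1 of the HCC4006 libraries (adjusted p between 0.066 and 0.2 by limma). *GSS* was 1.17 times higher in HCC4006 and was not called (log2 difference 0.22, adjusted p = 0.143 by limma). Thus 2 of the 6 genes were called higher in HCC4006 and 3 lower, where 36.8% of all genes tested were called higher and 30.2% lower, so a difference between the lines was common among all genes.

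Within the 4 groups the levels could be put in order for each gene. *GCLC* ran from ABC1 with vehicle (26.0 ± 7.32 FPKM, SD, n = 2) over HCC4006 with vehicle (83.5 ± 0.64) and ABC1 with DEM (243 ± 17.3) to HCC4006 with DEM (387 ± 0.17), with no overlap of neighbours. *GCLM* ran from HCC4006 with vehicle (7.93 ± 0.28 FPKM, SD, n = 2) over ABC1 with vehicle (16.4 ± 1.68) and HCC4006 with DEM (38.5 ± 1.80) to ABC1 with DEM (52.4 ± 6.24), also with no overlap. For *SLC7A11* and *GSR* the order was that of *GCLM*, without overlap of neighbours. *GSS* was lowest in ABC1 with DEM, and its 2 HCC4006 groups overlapped. For *GGCT*, ABC1 with vehicle and ABC1 with DEM overlapped, as did ABC1 with DEM and HCC4006 with DEM, and HCC4006 with vehicle stood above the others.

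Other genes of glutathione and cysteine metabolism were taken from a list of 34, of which 20 passed the minimum of 1 FPKM in ABC1 and 26 in HCC4006. Of those in ABC1, limma called 3 higher and 0 lower (2 had a lower value at an unadjusted p under 0.05). In HCC4006, 8 were called higher and 0 lower by limma (3 had a lower value at an unadjusted p under 0.05), and the 3 of ABC1 were among the 8. In the middle of the list stood a log2 fold change of 0.24 for ABC1 and 0.155 for HCC4006 (medians), far under that of the 6 genes. In ABC1 the list had 0 calls without vehicle replicate 0 or vehicle replicate 1 and 1 call without DEM replicate 0 or DEM replicate 1, and in HCC4006 it had 5 to 6 calls with any 1 library left out. These counts stand beside the 0.768% and 8.45% of all genes that were called higher in the lines. This list too was chosen with earlier results of these data known.

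Among genes of cystine and amino acid supply, 1 of 5 tested was called higher in ABC1 (*SLC3A2*) and 4 of 6 in HCC4006. Besides *SLC3A2* these were *SLC6A9*, a glycine transporter (log2 fold change 1.21, adjusted p = 0.00634 by limma), *SLC1A5*, a glutamine transporter (0.64, adjusted p = 0.00703 by limma), and *SLC1A4*, a carrier of neutral amino acids (0.36, adjusted p = 0.0361 by limma). Their values in ABC1 were 0.63, 0.94 and 1.02, with adjusted p between 0.0671 and 0.0723 by limma. Among genes that make cysteine or glutamate or dispose of cysteine, 1 of 5 was called higher in ABC1 (*CBS*) and 2 of 6 in HCC4006 (*CBS* and *CTH*). Over all genes tested, 0.768% were called higher in ABC1 and 8.45% in HCC4006. *CBS* and *CTH* are the 2 enzymes of transsulfuration, which makes cysteine from homocysteine.

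*CBS* went from 13.5 and 15.9 FPKM to 28.9 and 32.5 FPKM in ABC1, a log2 fold change of 1.02 (adjusted p = 0.0452 by limma), and from 93.7 and 93.6 FPKM to 119.97 and 109 FPKM in HCC4006, a log2 fold change of 0.28 (adjusted p = 0.0476 by limma). *CTH* was 40.6 and 42.7 FPKM with vehicle and 51.2 and 49.9 FPKM with DEM in ABC1 (log2 fold change 0.28, adjusted p = 0.245 by limma). In HCC4006 it went from 9.50 and 9.23 FPKM to 22 and 23.5 FPKM (1.2, adjusted p = 0.00187 by limma). The response of *CTH* was larger in HCC4006 by 0.92 on the log2 scale (95% confidence interval 0.63 to 1.22, adjusted p = 0.0357 by limma), the single call among 25 genes of the list tested for the difference, and it was lost without any 1 of the 8 libraries. The level of *CTH* with DEM in HCC4006 was still under its level with vehicle in ABC1. For *CBS* the difference went the other way and was not called (-0.73, 95% confidence interval -1.11 to -0.357, adjusted p = 0.1 by limma). At an unadjusted p under 0.05, 4 of the 25 genes, *CTH* among them, had a larger response in HCC4006. A smaller response there was seen for 4, among them *CBS*.

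Among genes of glutathione breakdown, 1 of 4 tested was called higher in ABC1 and 1 of 8 in HCC4006, and in both lines this was *CHAC1*, a cyclotransferase that degrades glutathione. It went from 15.0 and 16.5 FPKM to 44 and 43.2 FPKM in ABC1 (log2 fold change 1.41, adjusted p = 0.0186 by limma) and from 11.2 and 9.03 FPKM to 20.1 and 17.9 FPKM in HCC4006 (0.85, adjusted p = 0.0116 by limma). Its direction was thus opposite to that of *GGCT* in HCC4006. The 4 glutaredoxins use glutathione to reduce disulfides. Of these, 0 were called in ABC1 by limma (0 at an unadjusted p under 0.05) and 1, *GLRX*, in HCC4006 (0.80, adjusted p = 0.00345 by limma). At an unadjusted p under 0.05 in HCC4006, 3 glutaredoxins were higher and 1 was lower. Among all 13542 genes tested there, 4985 had an unadjusted p under 0.05. Over all genes tested, 0.768% were called higher in ABC1 and 8.45% in HCC4006, so 1 call in HCC4006 among so few genes says little about either group. Both carriers that bring glutathione into mitochondria, *SLC25A39* and *SLC25A40*, were tested in each line and 0 were called by limma, with 0 at an unadjusted p under 0.05.

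**Figure D4:**
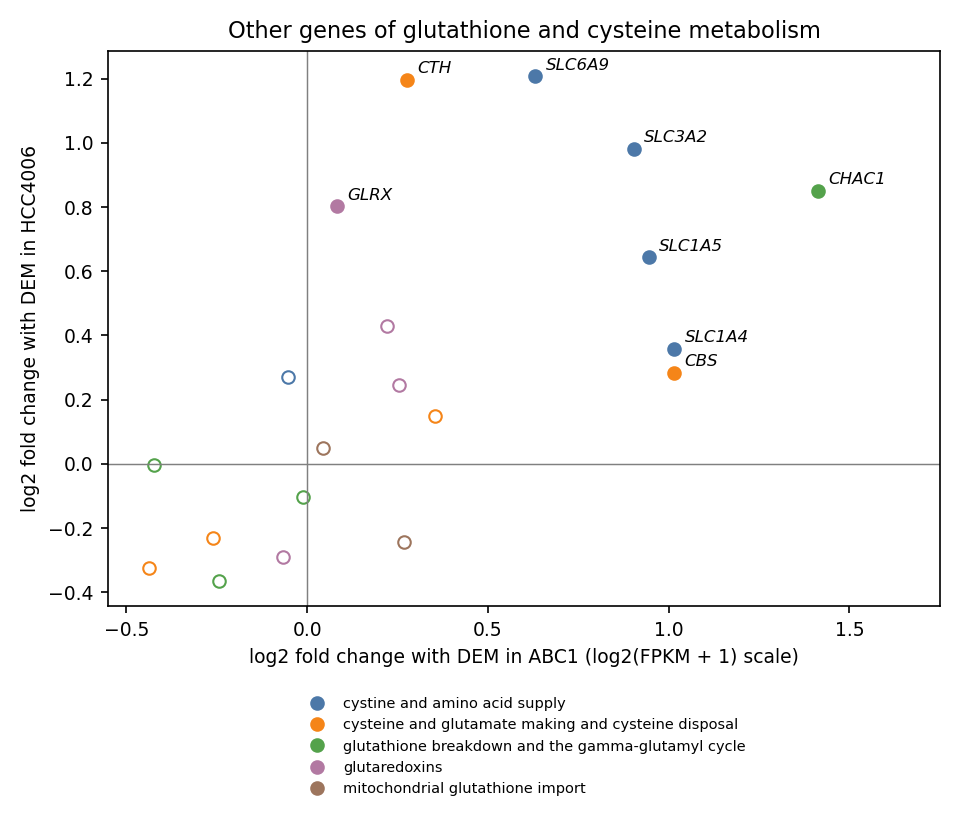
The log2 fold change with DEM in ABC1 (horizontal axis) against that in HCC4006 (vertical axis), on the log2(FPKM + 1) scale, for the 20 other genes of glutathione and cysteine metabolism tested in both lines, coloured by group. Filled and named points were called at an adjusted p under 0.05 in at least 1 line; *CTH* lay at 0.28 and 1.2, *CHAC1* at 1.41 and 0.85.

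The profile over the 8 libraries was compared with that of 13681 other genes by the root mean square distance of centred log2(FPKM + 1) values. For *SLC7A11* the nearest were *SRXN1* (distance 0.30), *TXNRD1* (0.38) and *AKR1C1* (0.39), where the profile of *SLC7A11* itself had a standard deviation of 1.33. For *GCLC* they were *NMRAL2P* (0.36), *OSGIN1* (0.45) and *CABYR* (0.53), with a standard deviation of 1.5 for *GCLC*. For *GCLM* they were *GSR* (0.33), *UNKL* (0.34) and *PIR* (0.41), with a standard deviation of 1.01 for *GCLM*. *GCLM* was thus nearest to another of the 6 genes, whereas its distance to its partner subunit *GCLC* was 1.10. The distance of *GCLC* to *SLC7A11* was 0.77. These distances describe 8 libraries that share 4 conditions, and carry no test.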

How the data were processed

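Poly(A) RNA of ABC1 and HCC4006 cells was sequenced with a strand-specific kit. Per the study's methods and the labels, the authors aligned reads to hg19 (GRCh37) and deposited an FPKM value per gene and library. The methods name TopHat and Cufflinks, whereas the submitters' processing notes name STAR 2.5.3a, cutadapt 1.15, Cuffnorm, HTSeq and DESeq2 without their roles, so which of them made the FPKM values is not settled, and the strand setting is not given in the sources used here. The authors also deposited a comparison table per line, of which only the base mean, a signal of scaled counts, was used here. Its columns of fold change and p-value were not used. The depth of single libraries is therefore not known, and FPKM carries no counting interval.

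Groups came from the labels. Positions are from GENCODE on GRCh37. limma 3.58.1 (R 4.3.3) was fitted to log2(FPKM + 1) with a mean-variance trend, for genes whose mean over the fitted libraries reached 1 FPKM, over 4 libraries within a line, and over 8 for the difference between lines and for vehicle levels. Benjamini-Hochberg adjustment ran over all genes tested, with calls at an adjusted p under 0.05 and no minimum fold. On simulated data for ABC1 (12635 genes), 86.5% of genes changed by 1 on the log2 scale and 100% of those changed by 2 were recovered, and 6.97% of calls were unchanged genes. For HCC4006 (13542 genes) these values were 100%, 100% and 9.09%, and for the difference between lines (13682 genes) 69.7%, 100% and 7.22%. Only genes with a mean above about 10 FPKM were changed in these simulations, 91 to 109 for each size of change. The noise was normal and independent between libraries, with the spread taken from the fit itself. Far fewer genes were changed than the 2591 called in HCC4006, so the percentages for that line need not carry over. Each share of unchanged genes among the calls lay above the 0.05 that the adjustment aims at. Recovery of lower genes was not simulated. The spread behind the p-values is that between the 2 cultures of a group, pooled over the groups of a fit. limma also drew it toward the trend over all genes tested. The 6 genes and the list of 34 were chosen with earlier results of these data known, and 1 further gene of the list is not reported here. Named from the list were genes called in either line, up to 10 per line, plus *SLC3A2*, *CBS*, *CTH* and *CHAC1*, and for *GCLC*, *GCLM* and *SLC7A11* the 3 nearest profiles. Alternatives were another pseudocount (0.1), no FPKM minimum, no trend, scaling by the median of ratios, a replicate block, 1 model of all libraries and each library left out.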

Additional observations from a re-analysis of the deposited data

Results flagged for a closer look

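The response of *CTH*, the transsulfuration enzyme that releases cysteine, differed between the lines by the test of the difference itself, with a log2 fold change larger in HCC4006 by 0.92 (standard error 0.13, adjusted p = 0.0357 by limma). Both DEM libraries lay above both vehicle libraries in each line. The call was lost with a pseudocount of 0.1, with the replicate block and without any 1 of the 8 libraries.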

How the results depend on the processing

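*SLC7A11*, *GCLC*, *GCLM* and *GSR* in HCC4006, and *GCLC* and *GCLM* between the lines with vehicle, stayed called under every alternative run, and no result of the 6 genes that was called changed its direction. Changes of sign were seen for results that were not called, *GSS* in HCC4006 (-0.050 without vehicle replicate 1, -0.021 without DEM replicate 1, with a range of -0.050 to 0.105 over single libraries left out) and the difference between lines for *GSR* (-0.035 without ABC1 DEM replicate 0, -0.13 without ABC1 vehicle replicate 1, with a range of -0.13 to 0.185). Where no cause is named, the cause was not tested. Leaving out the FPKM minimum adds low genes to the fit, with its mean-variance trend, as well as to the adjustment. Which of these moved the calls was not tested. ABC1 then had 0 of the 6 genes (4 as reported), 0 of the wider list (3) and 0 of all genes (152) called. HCC4006 had 3 of the wider list (8) and 370 of all genes (2591). The difference between lines had 403 of all genes (87), and the vehicle levels had 3 of the 6 genes (5). Without the mean-variance trend, ABC1 had 1 of the wider list and 33 of all genes, and with scaling by the median of ratios 251 of all genes. In 1 model of all 8 libraries, ABC1 had 7 of the wider list and 1494 of all genes, and HCC4006 had 1553 of all genes. With a pseudocount of 0.1, the difference between lines had 0 of the wider list (1) and 20 of all genes. The share of calls in ABC1 that were higher was 63.8%, 81.8% without the trend, 50.5% with the replicate block and 49.4% in the model of 8 libraries. Leaving out 1 library at a time gave 2 to 3 of the 6 genes, 0 to 1 of the wider list and 18 to 69 of all genes in ABC1. In HCC4006 it gave 4 to 5, 5 to 6 and 634 to 1028. For the difference between lines it gave 0 to 1, 0 and 4 to 41, and for the vehicle levels 2 to 5 of the 6 genes. An arm left with 1 library was assumed to vary like the others.

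The labels number the libraries of each group 0 and 1, but nothing says that a number marks a shared culture or day, and the deviations of same-numbered libraries correlated at 0.258 in ABC1 and 0.0544 in HCC4006, over only 2 pairs per line. With the replicate block, ABC1 had 7 of the wider list and 2348 of all genes called, HCC4006 had 13 of the wider list, and the difference between lines had 0 of the wider list and 13 of all genes. The block changed no call of the 6 genes in either line. Ratios of FPKM + 1 in place of FPKM gave 9.48 for *GCLC* to *GCLM* in HCC4006 with vehicle, and 0.0755 and 0.0586 for *SLC7A11* to *SLC3A2* with vehicle in ABC1 and HCC4006.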
